A study of Mus musculus with 5 samples.

Results

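Cytosolic ribosomal protein genes were taken from the RefSeq annotation of the mouse genome (GRCm38, the build mm10) as the protein-coding genes whose symbol is Rpl or Rps followed by a digit, together with Rpsa and Rplp0, Rplp1 and Rplp2. Pseudogenes and the Rps6k kinases, which share only the prefix, were left out. The rule found 89 of 21774 protein-coding genes. Of these, 77 encode canonical proteins of the ribosome, 31 of the small subunit and 46 of the large subunit. The other 12 carry a ribosomal symbol but are paralogues, retrogenes or, for Rps19bp1, the gene of a protein that binds a ribosomal protein. Fau, which encodes a further ribosomal protein fused to a ubiquitin-like sequence, falls outside the rule and served for comparison.

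The cytosolic ribosome is built from ribosomal RNA and one copy of nearly every ribosomal protein, so a cell must make these proteins in matched amounts. In mammals each canonical protein is usually made from a single active gene, while many intronless copies of the messenger RNAs lie across the genome as pseudogenes. The genes are known for short promoters that lack a standard TATA box and for transcripts that begin within a run of pyrimidines, the 5′ terminal oligopyrimidine tract through which their translation follows growth signals. Blood formation is sensitive to their dose, since inherited loss of one copy of several of them causes Diamond-Blackfan anaemia.

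DNaseI-seq lists of DNaseI hypersensitive sites (DHSs), stretches of chromatin open to the nuclease, were compared at 5 stages of blood differentiation in vitro. All populations came from embryonic stem (ES) cells of mouse strain 129 that carry a GFP reporter of Brachyury (Bry). MES is mesoderm sorted for Bry.GFP without Flk1, HB is the hemangioblast sorted for both, HE is hemogenic endothelium sorted for Tie2 and cKit and against CD41 (its label adds Bry.GFP), HP are CD41+ hematopoietic progenitors, and MAC are CD11b+ macrophages. There was 1 list per stage, that of MAC under a label that names both of its replicates, so no stage difference could be set against a spread between replicates and no test was made.

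A gene was counted as having a promoter site when a DHS reached to within 1 kb of any of its annotated transcription start sites (TSSs), and its width was that of the widest such DHS. The lists held 17734 (HP) to 37456 (MAC) sites, with median widths from 600 bp in MAC to 1200 bp in HE. They give positions only. Depth is not part of them. The study's supplement states that it gives aligned read numbers for all experiments, which were not used here. A gene without a listed site may still have open chromatin. Promoters of stage markers were checked first. All markers of MES (4 of 4), HB (4 of 4), HE (5 of 5) and MAC (6 of 6) had a site in their own stage, and 3 of 5 HP markers did, Gfi1b and Myb being without one in HP. Sites at markers were not confined to their own stage. HP markers had a site for 4 of 5 genes in HE. Myb had one only in HE and Gfi1b only in MAC. MES markers had one for 4 of 4 genes in HB and 3 of 4 in HE. Markers of fibroblasts had a site for 3 of 3 genes in MES, HB and HE, 1 in HP and 0 in MAC, and of ES cells for 3, 2, 1, 0 and 0 of 3 genes from MES to MAC. The 2 cardiac markers had a site in HE and in no other list. The part of such cells in the results below was not tested.

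Promoter sequences show what most of these sites cover. They were available for 69 of the 89 genes (57 canonical), from RefSeq for GRCm38.p6, as 250 bases before to 50 after a TSS. Of the 8 motifs searched, the 8-letter element known as M4, TCTCGCGA or its reverse complement, was found in 11 canonical genes, none of them among the 12 like-named genes. It is shown here in capitals, with 12 bases on either side and always 5′ to 3′ in the direction of transcription. Where the capitals run to 10 bases, the matches on both strands overlap.

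Rps19, chr7:24884553-24884584, plus strand: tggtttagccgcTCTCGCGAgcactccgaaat
Rps3a1, chr3:86142675-86142706, minus strand: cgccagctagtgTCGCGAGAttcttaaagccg
Rps6, chr4:86857399-86857430, minus strand: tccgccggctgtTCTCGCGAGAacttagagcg
Rps15a, chr7:118116194-118116225, minus strand: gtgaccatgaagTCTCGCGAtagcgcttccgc
Rps28, chr17:33824544-33824575, minus strand: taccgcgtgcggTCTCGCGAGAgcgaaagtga
Rpl7a, chr2:26910743-26910774, plus strand: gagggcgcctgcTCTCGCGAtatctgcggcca
Rpl10a, chr17:28328522-28328553, plus strand: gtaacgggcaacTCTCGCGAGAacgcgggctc
Rpl12, chr2:32961646-32961677, plus strand: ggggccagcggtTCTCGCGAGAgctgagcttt
Rpl26, chr11:68901528-68901559, plus strand: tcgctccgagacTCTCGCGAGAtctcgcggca
Rpl27a, chr7:109519162-109519193, plus strand: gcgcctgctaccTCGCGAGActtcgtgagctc
Rpl35, chr2:39005301-39005332, minus strand: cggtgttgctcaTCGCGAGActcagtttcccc

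In 9 of these genes with a single TSS in the table, the first base of the 13 matches lay at a median of 49 bases before the TSS, and 12 of the 13 lay between 100 bases before the TSS and the end of the window. Rps19, which encodes a small subunit protein and is the gene most often mutated in Diamond-Blackfan anaemia, held matches at -27, -8 and -6 from a TSS, the last 2 being the overlapping strands of 1 palindrome. The single match of Rpl35, at -189, lay furthest from its TSS. In Rps28 the match began 1 base before the TSS. All 11 genes had a promoter site in all 5 stages, as had nearly every other canonical gene.

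A second feature was the start itself. The following windows hold the 20 bases before the RefSeq TSS and the first 20 of the transcript, and capitals mark the unbroken run of C and T that holds it. The genes shown are examples picked for a TSS at a C or T within a run of at least 8 such bases. They come from both subunits, with Rplp2 from the stalk. The share of canonical genes with such a run is given below the windows.

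Rps6, chr4:86857348-86857387, minus strand: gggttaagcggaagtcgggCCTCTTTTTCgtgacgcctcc
Rps9, chr7:3704021-3704060, plus strand: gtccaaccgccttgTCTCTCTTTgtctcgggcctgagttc
Rps10, chr17:27635225-27635264, minus strand: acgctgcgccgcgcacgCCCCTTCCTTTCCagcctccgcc
Rps18, chr17:33955646-33955685, minus strand: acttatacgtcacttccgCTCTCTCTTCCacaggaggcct
Rps24, chr14:24490658-24490697, plus strand: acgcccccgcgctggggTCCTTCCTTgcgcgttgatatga
Rplp2, chr7:141447631-141447670, plus strand: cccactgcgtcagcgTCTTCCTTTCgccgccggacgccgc
Rpl7a, chr2:26910787-26910826, plus strand: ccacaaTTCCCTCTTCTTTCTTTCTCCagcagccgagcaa
Rpl14, chr9:120571497-120571536, plus strand: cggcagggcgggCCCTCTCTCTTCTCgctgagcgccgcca
Rpl15, chr14:18270967-18271006, minus strand: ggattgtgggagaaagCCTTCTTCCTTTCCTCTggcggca
Rpl28, chr7:4792945-4792984, plus strand: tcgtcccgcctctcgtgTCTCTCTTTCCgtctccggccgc
Rpl35, chr2:39005112-39005151, minus strand: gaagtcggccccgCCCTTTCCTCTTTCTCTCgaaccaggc
Rpl35a, chr16:33056462-33056501, plus strand: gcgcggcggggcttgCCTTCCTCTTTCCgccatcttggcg

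The run was counted on both sides of the TSS, so its length includes bases before the transcript. It was 21 bases in Rpl7a and 18 in Rpl35, and 9 in Rps9 and Rps24. Measured in the genome at every curated TSS, 20 of 77 canonical genes (26.0%) began within a run of at least 8 pyrimidines, against 4.50% of all 21000 genes with a curated TSS and 5.14% of those with a CpG-rich promoter. A run of at least 5 held the TSS in 32.5% of canonical genes and in 10.6% of all genes. The first base was a pyrimidine in 45.5% of canonical genes and in 27.1% of all genes, and the other starts were annotated at a purine. Annotated starts may lie some bases away from the start that cells use, which these data do not measure.

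Promoter sites were listed for nearly all canonical genes at every stage. In MES 83 of the 89 genes had one, against 55.5% of all protein-coding genes. HB had 84 (background 57.1%), HE had 82 (59.9%), HP had 82 (48.6%) and MAC had 81 (48.7%). A site in all 5 stages was listed for 81 of 89 genes, or 91.0% (95% Wilson interval 83.3 to 95.4), where 42.0% of all genes had one. Among canonical genes it was 76 of 77, or 98.7% (interval 93.0 to 99.8). That held for 46 of 46 genes of the large subunit and 30 of 31 of the small subunit. These intervals cover counting error only, and genes are not independent samples of a stage.

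**Figure D1:**
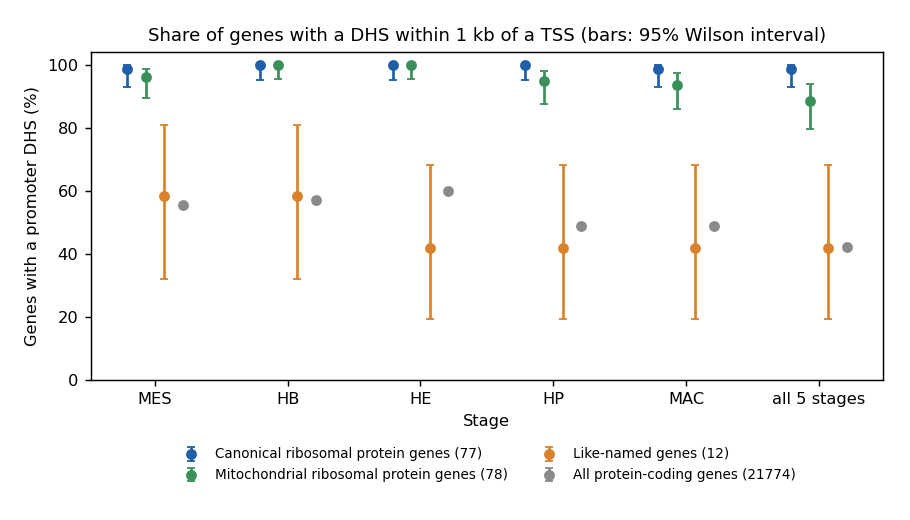
Share of genes (vertical axis, %) with a DHS within 1 kb of a TSS, by stage and for all 5 stages together. Points are shares and bars 95% Wilson intervals, each stage being 1 list. Canonical ribosomal protein genes lie at 98.7 to 100%, and all protein-coding genes at 48.6 to 59.9% in single stages.

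Other housekeeping genes of protein synthesis and respiration were close behind. In all 5 stages a site was listed for 69 of 78 genes of mitochondrial ribosomal proteins (88.5%, interval 79.5 to 93.8), 57 of 63 of cytosolic translation factors (90.5%, 80.7 to 95.6) and 73 of 88 nuclear genes of oxidative phosphorylation (83.0%, 73.8 to 89.4). The interval of the canonical genes overlapped those of the mitochondrial ribosome and the translation factors. Fau also had a site in all 5 stages.

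CpG-rich sequence went with sites listed at every stage across the genome. A promoter was counted as CpG-rich where the 500 bp around a TSS had a GC fraction no lower than 0.5 and an observed to expected CpG ratio no lower than 0.6. Of genes with such a promoter 69.9% had a site in all 5 stages, and of genes without one 8.12%. Canonical genes had a CpG-rich promoter in 74 of 77 cases (96.1%, interval 89.2 to 98.7), against 55.0% of all genes. Of these 74 genes 73 had a site in all 5 stages. The remaining 3, Rpl4, Rpl7 and Rpl27, also had one at every stage, although their sequence failed the CpG criterion. The median CpG ratio was 0.911 in canonical genes and 0.680 over all genes, while GC content was similar (61.6% and 60.0%).

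**Figure D2:**
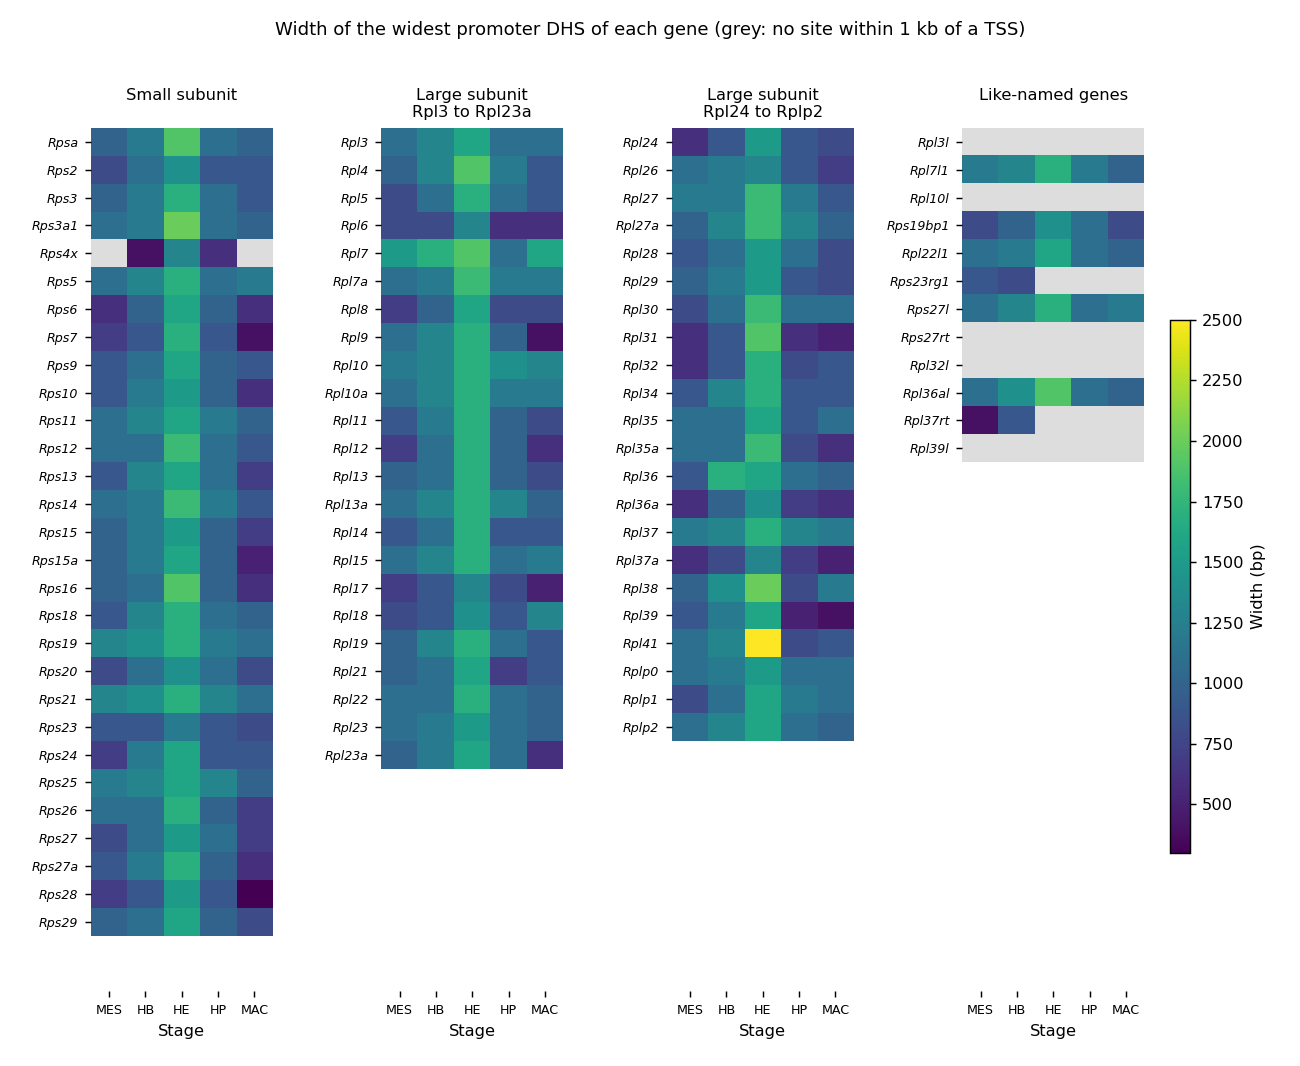
Width of the widest promoter DHS (colour, bp) of 86 of the 89 genes (rows) at each stage (columns), with grey for no site within 1 kb. Rps4x is the only canonical gene with grey cells, the HE column is the brightest, and 5 of the like-named genes are grey throughout.

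Rps4x was the one canonical gene that lacked a site at any stage. It encodes the small subunit protein S4 and lies on chromosome X, with TSSs at 102189391 and 102189304 on the minus strand. No promoter site was listed in MES. A site of 400 bp was listed in HB (102189163 to 102189562), of 1300 bp in HE (102188416 to 102189715) and of 600 bp in HP (102188984 to 102189583). None was listed in MAC. The widths were low for canonical genes wherever the site was present, at the 0.893 percentile of all genes with a site in HB, 19.7 in HE and 8.21 in HP. In MES and MAC the nearest listed site lay 31.8 kb away in both lists.

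The 220 bases before the upstream TSS of Rps4x and the first 30 of the transcript are shown, to set it beside Rps19, whose site was among the widest in MES, and Rpl10, another X-linked gene. Capitals mark every match to the 8 motifs given further on.

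Rps4x, chrX:102189362-102189611, minus strand: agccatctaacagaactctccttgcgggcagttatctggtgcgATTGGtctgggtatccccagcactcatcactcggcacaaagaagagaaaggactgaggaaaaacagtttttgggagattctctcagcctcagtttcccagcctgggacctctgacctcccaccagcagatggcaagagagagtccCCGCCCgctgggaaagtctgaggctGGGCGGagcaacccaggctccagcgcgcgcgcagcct
Rps19, chr7:24884372-24884621, plus strand: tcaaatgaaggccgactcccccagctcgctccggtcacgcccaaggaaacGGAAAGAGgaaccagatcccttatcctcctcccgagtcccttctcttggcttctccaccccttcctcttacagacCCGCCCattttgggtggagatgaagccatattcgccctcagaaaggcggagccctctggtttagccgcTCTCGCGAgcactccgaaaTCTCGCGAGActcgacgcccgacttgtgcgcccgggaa
Rpl10, chrX:74270596-74270845, plus strand: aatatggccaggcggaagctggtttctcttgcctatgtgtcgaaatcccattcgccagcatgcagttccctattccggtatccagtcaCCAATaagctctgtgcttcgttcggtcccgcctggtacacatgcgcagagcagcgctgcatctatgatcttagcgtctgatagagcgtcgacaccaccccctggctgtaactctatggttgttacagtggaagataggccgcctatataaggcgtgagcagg

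In Rps4x the matches were a pair of SP and KLF boxes at -7 and -32 and an NFY box at -177, and the M4 and ETS elements were not found. Rpl10 had 1 NFY box in the part shown.

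Chromosome X holds 4 canonical genes. Rpl10 had sites of 1200, 1300, 1700, 1400 and 1300 bp from MES to MAC. Rpl36a had 600, 1000, 1400, 700 and 600 bp, and Rpl39 had 900, 1200, 1600, 500 and 400 bp. So 3 of the 4 had a site at every stage, with Rpl10 among the widest and Rpl39 among the narrowest in HP and MAC. Over all X-linked genes a promoter site was less frequent than on autosomes in every list, for instance 33.5% against 56.5% in MES and 27.4% against 49.7% in MAC.

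The genes with ribosomal names but outside the canonical set fell into 3 kinds. Rpl22l1 and Rpl36al, close paralogues of Rpl22 and Rpl36a, Rps27l, a paralogue of Rps27, Rpl7l1 and Rps19bp1 had a site in all 5 stages. Their sites were 800 to 1900 bp wide. Rps27l had 1100, 1300, 1700, 1100 and 1200 bp from MES to MAC. Rpl22l1 had 1100, 1200, 1600, 1100 and 1000 bp. Rpl36al had 1100, 1400, 1900, 1100 and 1000 bp, where Rpl36a had narrower sites at every stage. All 5 had a CpG-rich promoter.

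A second kind had no site in any list. They were Rpl3l, a paralogue of Rpl3 known from striated muscle, Rpl10l and Rpl39l, known from male germ cells, and the retrogenes Rpl32l and Rps27rt. Their canonical partners Rpl3, Rpl10, Rpl39, Rpl32 and Rps27 all had a site at every stage. Rpl10l and Rpl39l met the CpG criterion, and the other 3 did not. The nearest site to Rpl10l lay 391 kb away in HE and 775 kb away in MES. Near Rpl3l a site about 3 kb away was listed in all 5 stages, 3.00 kb in HB and 3.04 kb in MAC.

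The third kind had a site in MES and HB and in no later list. Rpl37rt had 400 bp in MES and 900 bp in HB, by its TSS at 115107962 on chromosome 5. Rps23rg1, a retrogene of Rps23, had 900 bp in MES and 800 bp in HB at its TSS at 3567998 on chromosome 8. Neither promoter was CpG-rich. From HE on, the nearest site to Rpl37rt was 8.26 to 8.68 kb away, and that to Rps23rg1 18.7 to 50.9 kb away. Their parents Rpl37 and Rps23 had sites of 1200 to 1700 bp and 800 to 1200 bp across the stages.

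What a retrogene shares with its parent can be read from Rps27 and Rps27rt. The 80 bases before each TSS and the first 30 of the transcript are printed, with the part of their longest shared stretch that falls in the window in capitals.

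Rps27, chr3:90213619-90213728, minus strand: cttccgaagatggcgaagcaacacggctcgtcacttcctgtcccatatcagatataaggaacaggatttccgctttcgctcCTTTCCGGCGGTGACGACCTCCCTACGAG
Rps27rt, chr9:114982710-114982819, minus strand: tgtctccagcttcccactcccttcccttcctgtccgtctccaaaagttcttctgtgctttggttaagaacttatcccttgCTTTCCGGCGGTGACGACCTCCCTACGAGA

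The shared stretch was 38 bases long and began at base 2 of Rps27 and at base 1 of Rps27rt. Over the 80 bases before the TSS, 30% of positions were identical without gaps. The sequence of the transcript was thus shared from near its start. The upstream comparison was not shifted to match the shared stretch, so it cannot show whether the promoters share sequence. Rps27 had sites of 800, 1100, 1500, 1100 and 700 bp from MES to MAC, and Rps27rt had none.

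Pseudogenes were counted in the same way. Of 318 annotated pseudogenes named after ribosomal protein genes, the number with a site within 1 kb was 6 (MES, 1.89%), 7 (HB, 2.20%), 8 (HE, 2.52%), 2 (HP, 0.629%) and 11 (MAC, 3.46%). A single one, Rpsa-ps12, had a site in all 5 stages, and 17 had one in at least 1 stage. How often any position away from promoters lies within 1 kb of a site was not counted. These shares therefore have no background beside them, and nothing particular to pseudogenes is read from them. The authors kept only uniquely placed reads, and how far these near-identical copies allow a unique placement was not tested.

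The width of the sites followed the stage. In canonical genes the widest promoter site had a median width of 1000 bp (MES), 1200 bp (HB), 1700 bp (HE), 1000 bp (HP) and 900 bp (MAC). Over all genes with a site it was 1000, 1200, 1600, 1100 and 900 bp. By the median percentile among all genes with a site, canonical genes stood at 50.0, 51.6, 64.1, 37.9 and 52.9 from MES to MAC. Widths come in steps of 100 bp, so the HE and HP values each lie 1 step from those of all genes. With all 89 genes the HP median was 1100 bp, at a percentile of 52.5. A site was listed at nearly every canonical promoter, but it was not a wide one.

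**Figure D3:**
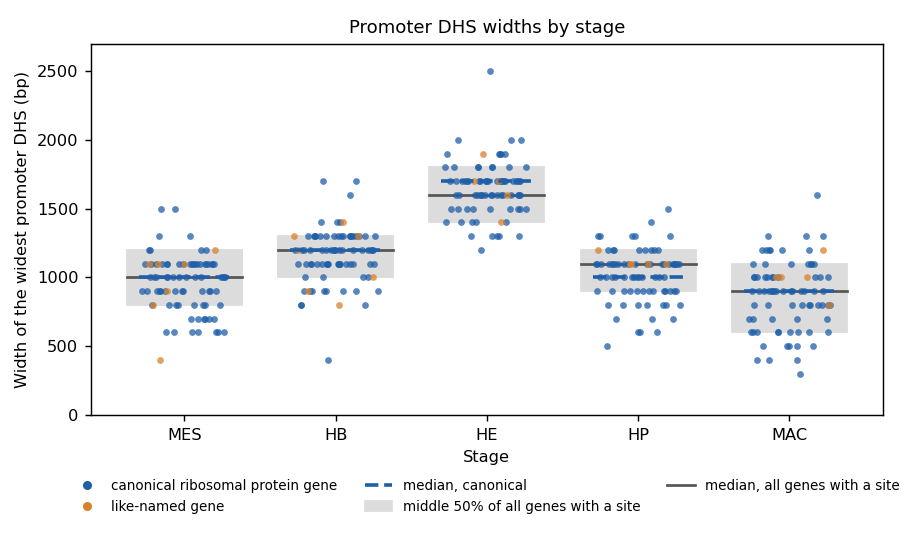
Width of the widest promoter DHS (vertical axis, bp) of each gene at each stage, 1 point a gene, with canonical genes in blue and like-named genes in orange. The grey box spans the middle 50% of all genes with a site, the grey line their median and the dashed line the canonical median. The canonical median meets that of all genes in MES, HB and MAC and lies 100 bp above it in HE and 100 bp below it in HP.

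Canonical genes were closer to their median in width than all genes. Within 200 bp of their own median lay 77.6% of them in MES, 80.5% in each of HB and HE, 81.8% in HP and 63.2% in MAC. For all genes with a site the shares were 61.0%, 64.9%, 60.6%, 66.7% and 57.4%. In HE the quartiles of width were 1500 and 1700 bp in canonical, mitochondrial ribosomal and oxidative phosphorylation genes alike. In MAC they were 700 and 1000 bp in each. In MES they were 800 and 1100, 750 and 1100, and 850 and 1100 bp in that order. In HB canonical genes had 1100 and 1300 bp, against 900 and 1275, and 1000 and 1300 bp. In HP they had 900 and 1100 bp, against 900 and 1200 bp in both others. Sites under 500 bp were listed for 0 canonical genes in MES, where 5.96% of all genes with a site had one, for 0 in HP (3.02% of all) and for 4 in MAC (5.26%, against 11.8%). In HB the count was 1 (Rps4x, 1.30%, against 187 of 12436 genes) and in HE 0 (against 0.146%), near the share over all genes.

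Nearly every gene took part in the change between stages. From MES to HB the width rose by a median of 200 bp, with 68 of 76 canonical genes wider, 8 equal and 0 narrower, where 83.3% of all genes with a site in both lists were wider. From HB to HE it rose by 500 bp in the median and 76 of 77 genes were wider (all genes 92.2%), the exception being Rpl36. From HE to HP it fell by 600 bp in the median and 77 of 77 were narrower (97.6%). From HP to MAC it fell by 100 bp in the median, with 56 of 76 narrower, 11 equal and 9 wider (all genes 76.4% narrower). HE gave the widest site for 75 of the 76 canonical genes with a site at every stage and for 93.6% of all such genes. The lists themselves differ in median width in the same direction, so the stage and the calling of the list cannot be told apart.

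The order of the genes by width carried over in part. Spearman's rho across canonical genes was 0.71 from MES to HB, 0.39 from HB to HE, 0.32 from HE to HP and 0.61 from HP to MAC. Across all genes it was 0.80, 0.56, 0.50 and 0.62. These describe genes within single lists, and genes are not replicates.

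The widest sites belonged to few genes. Rpl7, a large subunit protein gene without a CpG-rich promoter, had 1500, 1700, 1900, 1100 and 1600 bp from MES to MAC. Its site reached far upstream, to 1269 bp before the TSS in MES, 825 bp in HP and 1381 bp in MAC, but only 218 to 592 bp into the gene. Rpl10 was among the 3 widest in HP and MAC, as were Rpl13a in HP and Rpl18 in MAC, both with 1300 bp. In MES the third place was shared by Rps19 and Rps21 with 1300 bp, and in HB Rpl36 matched Rpl7 with 1700 bp.

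In HE the order was another. Rpl41, which encodes the smallest ribosomal protein, had the widest site of any member, 2500 bp from 128546911 to 128549410 on chromosome 10, at the 99.1 percentile of all genes with a site. At other stages much the same stretch was listed in pieces. The MES list had sites of 1100 and 300 bp there, HB of 1300 and 600 bp and MAC of 900 and 600 bp, and in each of the 3 the narrower site was the one over the TSS at 128549168. In HP a single site of 800 bp was in reach. Rpl38 and Rps3a1 had 2000 bp each in HE.

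In Rpl36 stretches listed as separate sites in MES were listed as joined in HB. It had 3 sites in reach in MES (900, 600 and 500 bp), 2 in HB (1100 and 1700 bp), and 1 in HE (1600 bp). HP had 2 (1100 and 400 bp), and so had MAC (1000 and 300 bp). The 1700 bp site of HB spans nearly all of the 2 downstream sites of MES. Members with more than 1 site in reach numbered 4 in each of MES, HB and MAC, 2 in HE and 3 in HP. They were Rpl12, Rpl18, Rpl19, Rpl36 and Rpl41, of which Rpl18, Rpl19 and Rpl36 have annotated TSSs far enough apart for separate sites. Rpl18 was the only one with 2 sites in reach in every list, of 800 and 800 bp in MES and 1300 and 500 bp in MAC.

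Narrow sites were most frequent in MAC. Rps28 had 700, 900, 1500, 900 and 300 bp from MES to MAC, the last being the narrowest site of any member. Rpl39 had 400 bp in MAC and 500 bp in HP, the narrowest of that list. Rpl9 (1100 bp in MES, 400 bp in MAC) and Rps7 (700 bp in MES, 400 bp in MAC) were the others under 500 bp. In HE the narrowest sites were those of Rps23 (1200 bp), Rpl17, Rpl26, Rpl37a, Rpl6 and Rps4x (1300 bp each). Rpl6 and Rpl31 were lowest in HP after Rpl39, with 600 bp, as was Rps4x. In MES 7 canonical genes had 600 bp, Rpl24 and Rpl31 among them, and in HB Rpl37a and Rpl6 had 800 bp, as had Rps23rg1, with only Rps4x narrower. Of the genes with a narrowest site, Rpl31 was also one of wide range, from 500 bp in MAC and 600 bp in MES to 1900 bp in HE.

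Genes of Diamond-Blackfan anaemia, with Rps14 of 5q- syndrome, were a list of 19 canonical genes. All 19 had a site in all 5 stages. Their median widths were 900, 1100, 1700, 1000 and 800 bp from MES to MAC, within 100 bp of the canonical medians. Rps19 had 1300, 1400, 1700, 1200 and 1100 bp, which placed it among the wider genes in MES. Rpl5 had 800, 1100, 1700, 1100 and 900 bp and Rpl11 had 900, 1200, 1700, 1000 and 800 bp. These are the large subunit proteins that bind Mdm2 when ribosome assembly fails, and both lay near the median. Rps14 had 1100, 1200, 1800, 1200 and 900 bp, Rps24 had 700, 1200, 1600, 900 and 900 bp and Rpl35a had 1100, 1100, 1800, 800 and 600 bp. Rpl15 had 1100, 1300, 1700, 1100 and 1200 bp and Rpl26 had 1100, 1200, 1300, 900 and 700 bp. Rpl15 therefore kept a wider site in MAC than in MES and Rpl26 a narrower one. Rpl27 had 1200, 1200, 1800, 1200 and 900 bp, Rpl35 had 1100, 1100, 1600, 900 and 1100 bp and Rps29 had 1000, 1100, 1600, 1000 and 800 bp. Rps10 had 900, 1200, 1500, 1000 and 600 bp and Rps26 had 1100, 1100, 1700, 1000 and 700 bp. In this list the narrowest MAC sites were those of Rps28 and Rps7. The list was drawn from human disease and says nothing of the role of these genes in the cells studied.

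The stalk of the large subunit, where translation factors dock, is formed by the proteins of Rplp0, Rplp1 and Rplp2. Rplp0 had 1100, 1200, 1500, 1100 and 1100 bp from MES to MAC. Rplp1 had 800, 1100, 1600, 1200 and 1100 bp, and Rplp2 had 1100, 1300, 1600, 1100 and 1000 bp. The 3 genes differed from each other by at most 300 bp, which was in MES. Rpsa, the gene of the laminin receptor protein of the small subunit, had 1000, 1200, 1900, 1100 and 1000 bp.

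Around the TSS the sites were placed unevenly. The widest site covered the TSS itself in 98.7% of canonical genes with a site in MES and HB, 100% in HE and HP and 97.4% in MAC. Over all genes with a site this was 93.0%, 93.8%, 91.7%, 94.3% and 89.8%. Similar groups of genes were near the canonical level. It was 97.3%, 98.7%, 100%, 95.95% and 98.6% in mitochondrial ribosomal protein genes. In nuclear genes of oxidative phosphorylation it was 100%, 98.8%, 100%, 98.7% and 100%. In MES the site reached a median of 494 bp upstream and 409 bp downstream in canonical genes, against 482 and 486 bp over all genes. In HP it reached 568 bp upstream and 440 bp downstream, against 544 and 509 bp. The downstream reach of mitochondrial ribosomal protein genes was 433 bp in MES and 480 bp in HP. That of nuclear genes of oxidative phosphorylation was 468 and 481 bp. Only in HE did the downstream part of canonical genes exceed the upstream part, with 692 bp upstream and 885 bp downstream. Over all genes it was 713 and 860 bp there.

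The shorter downstream part was read at 500 and 550 bp after the TSS. In HP the position at 500 bp lay within the site in 23 of 77 canonical genes (29.9%, interval 20.8 to 40.9), against 51.5% of all genes with a site. In MES it was 30.3% (interval 21.1 to 41.3) against 45.7%. In HB the share was 59.7% (48.6 to 70.0) against 66.6% and in MAC 22.4% (14.5 to 32.9) against 30.1%, with the value over all genes inside the interval in both. In HE the direction was the opposite, 96.1% (89.2 to 98.7) against 85.8%. At 550 bp the share was 11.7% (6.27 to 20.8) against 38.8% in HP, 13.2% (7.31 to 22.6) against 34.7% in MES and 37.7% (27.7 to 48.8) against 55.9% in HB. All genes were outside the interval in these 3 lists, and inside it in MAC (14.5%, 8.28 to 24.1, against 22.7%). In steps of 50 bp the canonical share was furthest below that of all genes at 550 bp in MES and HP and at 700 bp in HB (2.60% against 23.3%). These positions were chosen after their values were seen.

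Upstream the canonical share was the higher one in 4 lists. At 500 bp before the TSS the canonical share was 75.3% (64.7 to 83.6) in HB, where all genes had 62.9%, outside the interval. In the other lists all genes were inside it. The canonical share was 48.7% against 45.6% in MES, 79.2% against 74.1% in HE, 63.6% against 58.6% in HP and 35.5% against 37.5% in MAC.

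**Figure D4:**
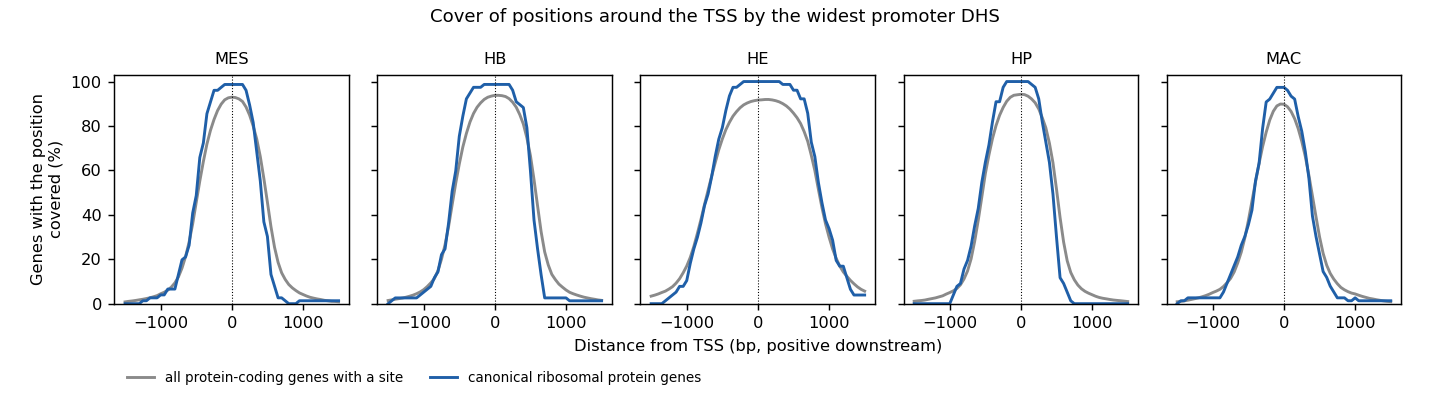
Share of genes (vertical axis, %) whose widest promoter DHS covers each position within 1500 bp of the TSS (horizontal axis, bp, positive downstream), 1 panel a stage, for canonical ribosomal protein genes in blue and all protein-coding genes with a site in grey. In HP the blue curve passes 29.9% at 500 bp downstream and the grey curve 51.5%.

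Of the 89 genes, 13 shared their promoter with another protein-coding gene whose curated TSS lay within 1 kb, all on the opposite strand (14.6%, against 10.2% of all genes with a curated TSS). The partners were Lrsam1 for Rpl12, Nkiras1 for Rpl15, Sphk2 for Rpl18, Iqcg for Rpl35a, Mgat2 for Rpl36al, Zwilch for Rpl4, Med22 for Rpl7a, Lias for Rpl9, Vps52 for Rps18, Trappc4 for Rps25, Rab13 for Rps27, Clhc1 for Rps27a and Ndufa7 for Rps28. The TSSs were 10 bp apart for Rps28 and Ndufa7, a gene of respiratory complex I, and 456 bp apart for Rpl4 and Zwilch. For these genes a site cannot be assigned to one of the partners. All 13 had a site in all 5 stages, and the median width of the 12 canonical ones was 1700 bp in HE and 800 bp in MAC, against 1600 and 900 bp for the other canonical genes.

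Small nucleolar RNAs, guides for the modification of ribosomal RNA, lie within the bounds of 30 of the 89 genes on the same strand (33.7%, against 1.03% of all genes). Together these held 58 of them. Rpl4 held 5, and Rpl7a and Rpl13a held 4 each. All 30 host genes had a site in all 5 stages, with 1000, 1300, 1900, 1200 and 900 bp for Rpl4.

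Each motif was matched letter by letter, on both strands, in the window of 250 bases before to 50 after the TSS. CCGGAAG, the core bound by ETS factors and GABP, was present in 26 of the 69 members (37.7%), in 13.0% of all 17492 genes in the table and in 24.2% of the 7547 of them with a site in all 5 stages. M4 was present in 11 members (15.9%, interval 9.14 to 26.3), in 1.59% of all genes and in 3.22% of those with a site in all 5 stages. CTCTTTCC, an octamer of pyrimidines, was present in 10 (14.5%, against 3.51% and 3.58%). It began at the first or second base of the transcript in 3 of these genes (Rpl18, Rpl28 and Rpl35a) and 24 to 34 bases in for 4 (Rpl6, Rpl19, Rpl26 and Rpl36a). Rpl11 held it at -65, and Rps19 and Rps21 only on the opposite strand, upstream.

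Of the other elements, some were rarer than among genes with a site in all 5 stages. GGGCGG, bound by SP and KLF factors, was present in 41 members (59.4%, interval 47.6 to 70.2, against 49.2% of all genes and 73.0% of those with a site in all 5 stages). CCAAT, bound by NFY, was present in 22 (31.9%, interval 22.1 to 43.6, against 42.3% and 46.2%). AAGATGGC, bound by YY1, was present in 6 (8.70%, interval 4.05 to 17.7, against 3.57% and 6.39%). GCATGCGC, bound by NRF1, was present in 3 (4.35%, against 3.94% and 7.38%). TATAAA, the TATA box, was present anywhere in the window in 8 (11.6%, against 14.8% and 7.46%).

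The nuclear genes of the mitochondrial ribosome differed from the cytosolic set in these counts. Of their 69 tabulated promoters, 1 held M4 (1.45%, interval 0.256 to 7.76) and 1 the pyrimidine octamer, against 11 (19.3%, 11.1 to 31.3) and 10 (17.5%, 9.82 to 29.4) of 57 canonical genes. Of 71 nuclear genes of oxidative phosphorylation, 4 held M4 (5.63%, interval 2.21 to 13.6, which overlaps that of the canonical genes) and 1 the octamer. The ETS core was present in 37.7% of the mitochondrial ribosomal set and in 42.1% of canonical genes. M4 and the ETS core occurred together in 5 canonical genes, and 27 of the 57 had neither. A match to these letters is a description of the sequence and not of binding.

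**Figure D5:**
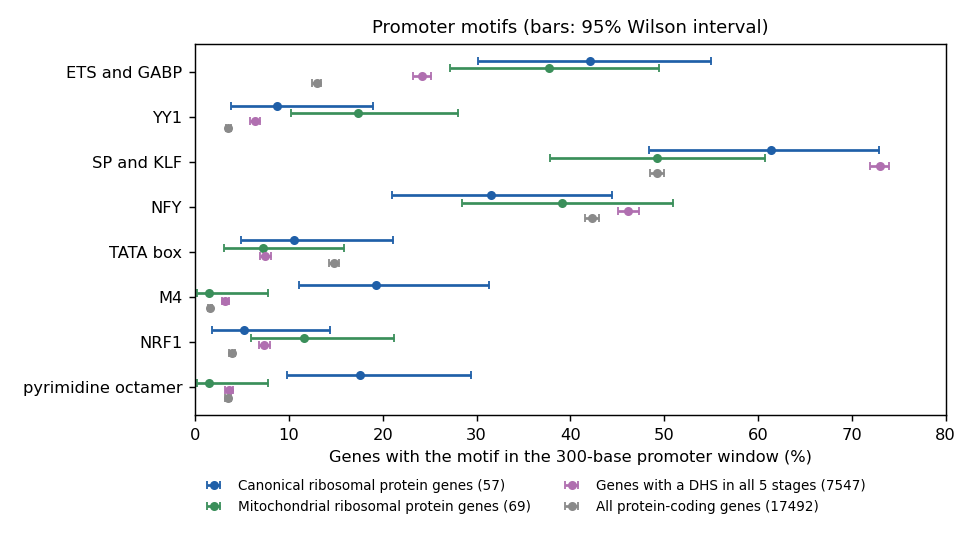
Share of genes (horizontal axis, %) with each motif on either strand of the 300-base promoter window, for 57 canonical ribosomal protein genes, 69 mitochondrial ribosomal protein genes, 7547 genes with a DHS in all 5 stages and all 17492 genes in the table. Bars are 95% Wilson intervals. M4 and the pyrimidine octamer lie at 19.3% and 17.5% in canonical genes and at 3.58% or less in the other groups shown.

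Beyond the promoter, sites within 10 kb of a TSS but over 1 kb from any protein-coding TSS were counted. Canonical genes had at least one such site in 27.3%, 32.5%, 36.4%, 19.5% and 24.7% of cases from MES to MAC. Genes with a CpG-rich promoter had one in 20.3%, 22.1%, 29.6%, 16.0% and 36.0%. The canonical share lay above that of CpG-rich genes beyond its interval in HB (23.1 to 43.5) and below it in MAC (16.4 to 35.4). In MES (18.6 to 38.1), HE (26.5 to 47.5) and HP (12.2 to 29.7) the interval held the value of the CpG-rich genes. Across the stages 31 of the 77 canonical genes (40.3%) had no such site in any list, with an interval that held the 45.1% of CpG-rich genes but not the 55.7% of all genes. In every list 6 had one (7.79%, 3.62 to 16.0), against 6.48% and 5.12%.

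Among them, Rpl12 had a site 4258 to 4813 bp downstream in all 5 lists, of 1100 bp in MES and 1800 bp in HE. Rps21 had one 5010 to 5555 bp upstream in all 5, of 1100 bp in MES and 600 bp in MAC. Rpl14 had one 4984 to 5484 bp downstream in all 5, of 800 bp in MES and 1500 bp in HE. Rpl32 had one 4235 to 4546 bp downstream in MES, HB and HE and one 5087 to 5355 bp upstream in MES, HB, HE and HP, and none in MAC. These genes were chosen after their values were seen.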

How the data were processed

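DNaseI-seq sites of 5 stages were analysed, 1 deposited list per stage. Per the study's methods, the authors cut adapters with CutAdapt and aligned with Bowtie to mm10. Reads with a unique place were retained, Picard took out duplicates, and DFilter, set to 100 bp bins, called the sites. The submitters' processing notes also name HOMER. Versions are not given in the sources used here. Deposited values are the first and last position of each site (base pairs), an other unit than counts, with no score, signal or read number. The aligned read numbers that the study's supplement says it gives were not used. Precision between stages cannot be given.

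TSSs were those of all RefSeq transcripts of each protein-coding gene (GRCm38.p6, 58496 positions), and those of curated mRNAs (26032) where stated. A site was assigned to each gene with a TSS within 1 kb. Where a gene had several, the widest was used, placed by the TSS nearest its middle. CpG content was read in 500 bp around each TSS, a gene being CpG-rich if any TSS was. Genes named are those that lacked a site at a stage, the 3 widest and 3 narrowest per stage, the disease and stalk genes, the paralogues and the shared promoters. Others are named as examples of a count. Some genes are not reported singly here, but are in all counts and medians. The members and lists were chosen with earlier results of these data known. Interval code was tested on simulated sites. Shares carry Wilson intervals (95%, counting error only). Python 3.11.15, pandas 2.3.3, numpy 2.4.6 and scipy 1.17.1 were used.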

Additional observations from a re-analysis of the deposited data

How the results depend on the processing

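Counts of genes with a site, median widths, their percentiles and the share of promoters with each motif were recomputed with a reach of 100 bp, 500 bp and 2 kb, with curated TSSs, with only the sites no narrower than their list's median, with the widest sites up to the length of the shortest list, with canonical genes only, with summed or nearest widths and with genome windows around curated TSSs. Counts stayed within 1.5 times their value, and motif shares and median widths within their 95% intervals. The share of the 89 genes with a CpG-rich promoter, 91.0%, was 78.7% under the stricter definition (GC at least 0.55, ratio at least 0.65). The number of genes with a site in all 5 stages, 81, was 81 with each reach, 80 with curated TSSs (Rpl36 lacked one in HE), 69 with the widest sites of each list and 60 with sites no narrower than the median of their list, where all genes gave 34.4% and 31.1%. As shares of the 89 genes, 69 and 60 lie below the interval of the main share (83.3 to 95.4%). Percentiles were held to the span of percentiles, ties included, of the widths in the interval of the median (31.8 to 56.9 in MES), which is wide because widths come in steps of 100 bp. All stayed within it, but some moved by over 9 points. The HP percentile of 52.5 was 37.7 with curated TSSs and 37.9 for canonical genes, 1 step of width. With sites no narrower than the median of their list, percentiles were 35.3 in MES (from 50.0), 42.6 in HB (from 51.6), 38.7 in HP and 42.8 in MAC (from 52.9), and MAC was 40.6 with the widest sites of each list. No paired analysis was possible because each stage has 1 sample and no result comes from a test. Leaving out a replicate was not possible for the same reason.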
